A study of Sus scrofa with 6 samples.

Results

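miR-142, miR-223 and miR-150 are miRNAs of blood cells, short RNAs that lower the output of the messenger RNAs they pair with. The miR-142 hairpin is transcribed across the white blood cell lineages and yields a mature miRNA from each of its arms, 5p and 3p. miR-223 is known from granulocytes and other myeloid cells, and miR-150 from mature B and T lymphocytes, where in the mouse it limits the transcription factor Myb. Milk carries leukocytes and shed epithelial cells beside its free RNA and its exosomes, small vesicles that cells release with RNA inside.

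The pig miRNA table was searched by mature name for miR-142, miR-223 and miR-150, and 3 of its 245 distinct entries matched. They were miR-142-5p, miR-142-3p and miR-150. The table holds no messenger RNA, so the link of these miRNAs to leukocytes is background and could not be checked against protein-coding markers. No entry with a value in a labelled column carried the name miR-223, so miR-223 was not analysed here. This does not show that the samples lacked miR-223. The libraries came from Rongchang pigs, 3 of milk exosomes (milk exosome 1 to 3) and 3 of milk (milk 1 to 3), and all were small RNA libraries made from total RNA without a stated treatment. The design text names 3 individuals as replicates and does not say whether exosome and milk samples of the same number share an animal, nor which steps yielded the exosomes. The spread behind the p-values below is thus that between these samples, whatever its source.

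The listed sequences are shown because the arm and the first bases of a miRNA decide which messages it pairs with. They are written as the deposited table gives them, with T for U, and capitals mark the seed, bases 2 to 8.
miR-142-5p: cATAAAGTagaaagcactact
miR-142-3p: gTAGTGTTtcctactttatgga
miR-150: tCTCCCAAcccttgtaccagtg
The 3 seeds differed from each other, and 0 of the other sequences in the table shared any of them. Each sequence stood under 1 name only, so its value is not shared with another entry. The miR-142-3p entry carries the suffix L-1R+1, which in tables of this kind marks a sequence that begins 1 base later and ends 1 base later than the database entry. Read that way, the database seed would be the first 7 bases of the listed sequence, GTAGTGT, and the seed of the listed sequence, TAGTGTT, lies 1 base further in. The table lists 1 form per arm, so how much of the signal came from each start was not measured. When the listed miR-142 arms were laid antiparallel, 18 of 20 facing positions were Watson-Crick pairs, 1 was a G-U pair and 1 did not pair, as arms cut from 1 hairpin do.

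Both miR-142 arms were poor in G and C, at 33.3% for miR-142-5p and 36.4% for miR-142-3p, below the lower quartile of 40.9% over the 238 distinct sequences. miR-150 had 54.5%, against a median of 50.0%. The motif GGAG, which in human T cells has been linked to the loading of miRNAs into exosomes, occurred in 0 of the 3 sequences and in 12.2% of all 238, searched on the listed strand only. CCCT, written CCCU in RNA and described as a motif of the same kind, occurred in miR-150 and in 16.4% of all sequences. In RefSeq's annotation of the pig assembly Sscrofa11.1, used for names and neighbours because the build behind the table is not given in the sources used here, MIR142 lies between TSPOAP1 and SUPT4H1.

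Depth differed within both groups and bears on every value below. The values are normalized abundances, and the most frequent value above 0 in a library was taken as 1 read. On this scale milk exosome 3 and milk 1, called deep here, held 8085173 and 9197175 read equivalents of listed miRNAs, and the 4 shallow libraries held 1926 to 9492. All 18 values of the 3 miRNAs were whole reads on this scale, within 0.01 reads. The deposited values themselves summed to 757425 in milk exosome 3 and 698372 in milk 1, against 26645 to 85493 in the shallow libraries. Values and fold changes below carry this difference in totals unless they are given as shares or after rescaling. The deep libraries, which belong to different groups, were the most alike pair of the 6, with a Pearson correlation of log2 values of 0.993 over 141 miRNAs. The next most alike pair, milk exosome 1 and milk 2 at 0.761, was also from different groups. The highest correlation with a library of the own group was 0.445 for milk exosome 3 and 0.479 for milk 1. The deep libraries had 15 entries at 0 each, against 41 to 120 in the shallow ones. Whether depth, miRNA content or the labels lie behind the likeness of these pairs was not tested. The group labels of the libraries could not be checked here, a doubt that extends to each exosome-minus-milk value below, and they were used as given. The 5 miRNAs of the erythrocyte list held 89.2% of the listed signal of milk exosome 3 and 89.7% of milk 1, against 2.91% to 12.3% of the shallow libraries.

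miR-142-5p, the most abundant of the 3, was higher in the deep libraries than in the other 4. It stood at 1162, 19.7 and 5565 in milk exosomes 1, 2 and 3, and at 3988, 989 and 111 in milk 1, 2 and 3. The groups overlapped, with both the highest and the lowest value in exosomes and all 3 milk values between them. These values correspond to 129, 1 and 59403 reads in exosomes, and to 52516, 69 and 8 reads in milk. The mean was 2249 ± 2928 in exosomes and 1696 ± 2033 in milk (SD, n = 3 each), so the SD exceeded the mean in both groups. Among the 245 entries miR-142-5p ranked 17, 104 and 4 in milk exosomes 1, 2 and 3, and 5, 15 and 38 in milk 1, 2 and 3.

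miR-142-3p, from the other arm of the same hairpin, had a similar order. It stood at 216, 19.7 and 4837 in milk exosomes 1, 2 and 3, and at 3308, 602 and 13.8 in milk 1, 2 and 3. Its values in milk exosome 2 and milk 3 were 1 read each, so they set only a rough level. The mean was 1691 ± 2727 in exosomes and 1308 ± 1757 in milk (SD, n = 3 each). It ranked 7 in both deep libraries. The highest value was 350 times the lowest for miR-142-3p and 283 times the lowest for miR-142-5p. Each of these lowest values was 1 read, so the folds are rough.

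miR-150, a lymphocyte miRNA, varied far less in its deposited values. It stood at 108, 98.3 and 723 in milk exosomes 1, 2 and 3, and at 509, 416 and 69.2 in milk 1, 2 and 3. The highest value was 10.4 times the lowest, and the groups overlapped here too. The shallow libraries held 12 and 5 reads of it in milk exosomes 1 and 2, and 29 and 5 reads in milk 2 and 3. The mean was 310 ± 358 in exosomes and 331 ± 232 in milk (SD, n = 3 each). In milk exosome 2 miR-150 exceeded both miR-142 arms, which it did in no other library; in milk 3 and milk 2 it came closest to miR-142-5p.

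**Figure D1:**
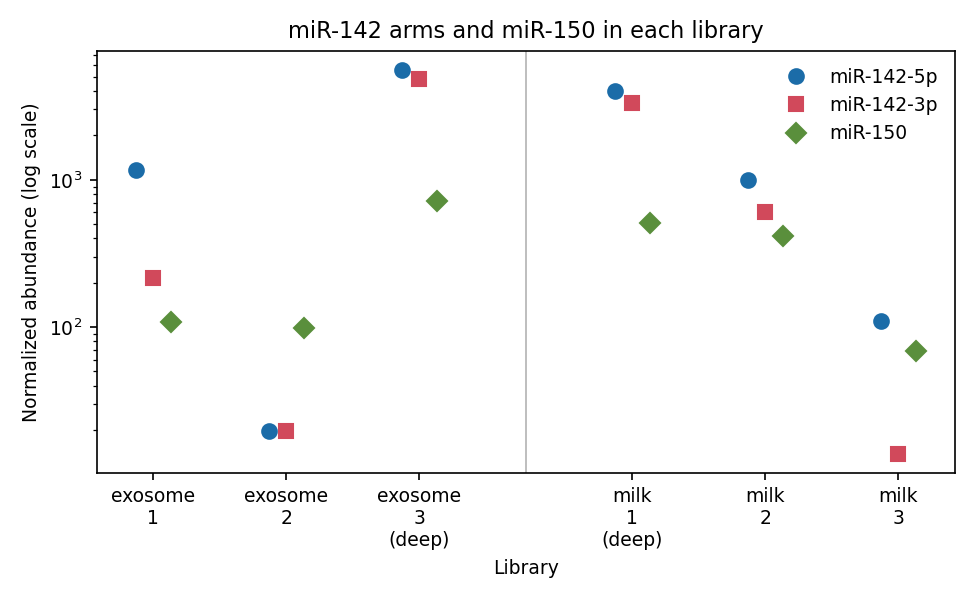
Normalized abundance (log scale) of miR-142-5p, miR-142-3p and miR-150 in each library, exosomes left and milk right, 1 point per library. Both arms of miR-142 are at 3308 or more in the deep libraries milk exosome 3 and milk 1, and both are at 19.7 in milk exosome 2, where miR-150 is at 98.3.

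Taken as shares of the listed signal, the deep libraries no longer led. miR-142-5p held 1.36% (exact Clopper-Pearson 95% interval 1.14% to 1.61%), 0.0255% (0.000646% to 0.142%) and 0.735% of milk exosomes 1, 2 and 3. It held 0.571% of milk 1, 1.56% (1.22% to 1.98%) of milk 2 and 0.415% (0.179% to 0.817%) of milk 3. The intervals cover counting error only. In the deep libraries they ran from 0.729% to 0.741% in milk exosome 3 and from 0.566% to 0.576% in milk 1. Milk exosome 1 and milk 2 thus held the highest shares, and their intervals overlapped.

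miR-142-3p held 0.253% (0.162% to 0.376%), 0.0255% (0.000646% to 0.142%) and 0.639% of milk exosomes 1, 2 and 3, against 0.474%, 0.952% (0.687% to 1.28%) and 0.0519% (0.00131% to 0.289%) of milk 1, 2 and 3. miR-150 held 0.126% (0.0653% to 0.221%), 0.128% (0.0415% to 0.298%) and 0.0954% of milk exosomes 1, 2 and 3. It held 0.0729%, 0.657% (0.441% to 0.943%) and 0.260% (0.0843% to 0.605%) of milk 1, 2 and 3. Milk 2 had the highest share of both, and milk 1 the lowest of miR-150.

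The 3 miRNAs together held 1.74%, 0.179% and 1.47% of milk exosomes 1, 2 and 3, and 1.12%, 3.17% and 0.727% of milk 1, 2 and 3. The mean was 1.13% ± 0.834 in exosomes and 1.67% ± 1.31 in milk (SD, n = 3 each). The difference of -0.54 percentage points did not pass a two-sided exact permutation test (p = 0.7, where 3 against 3 cannot go below 0.1). It changed sign without milk 2, to 0.21 percentage points. A smaller share of these miRNAs in a library can come from fewer leukocytes, from less of the miRNA per cell or from more of other miRNAs. Bulk values cannot tell these apart.

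With the erythrocyte list taken out of the total, the deep libraries had the highest shares. Together the 3 miRNAs then held 1.82%, 0.184% and 13.6% of milk exosomes 1, 2 and 3, and 10.9%, 3.62% and 0.812% of milk 1, 2 and 3. The mean was 5.21% ± 7.34 in exosomes and 5.11% ± 5.21 in milk, a difference of 0.10 percentage points (two-sided exact permutation test, p = 1.0). miR-142-5p alone held 6.82% of this remainder in milk exosome 3 and 5.57% in milk 1, and at most 1.78% in the shallow libraries. For miR-150 the deep libraries did not both lead, since it held 0.886% of milk exosome 3, 0.712% of milk 1 and 0.750% (0.503% to 1.08%) of milk 2.

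**Figure D2:**
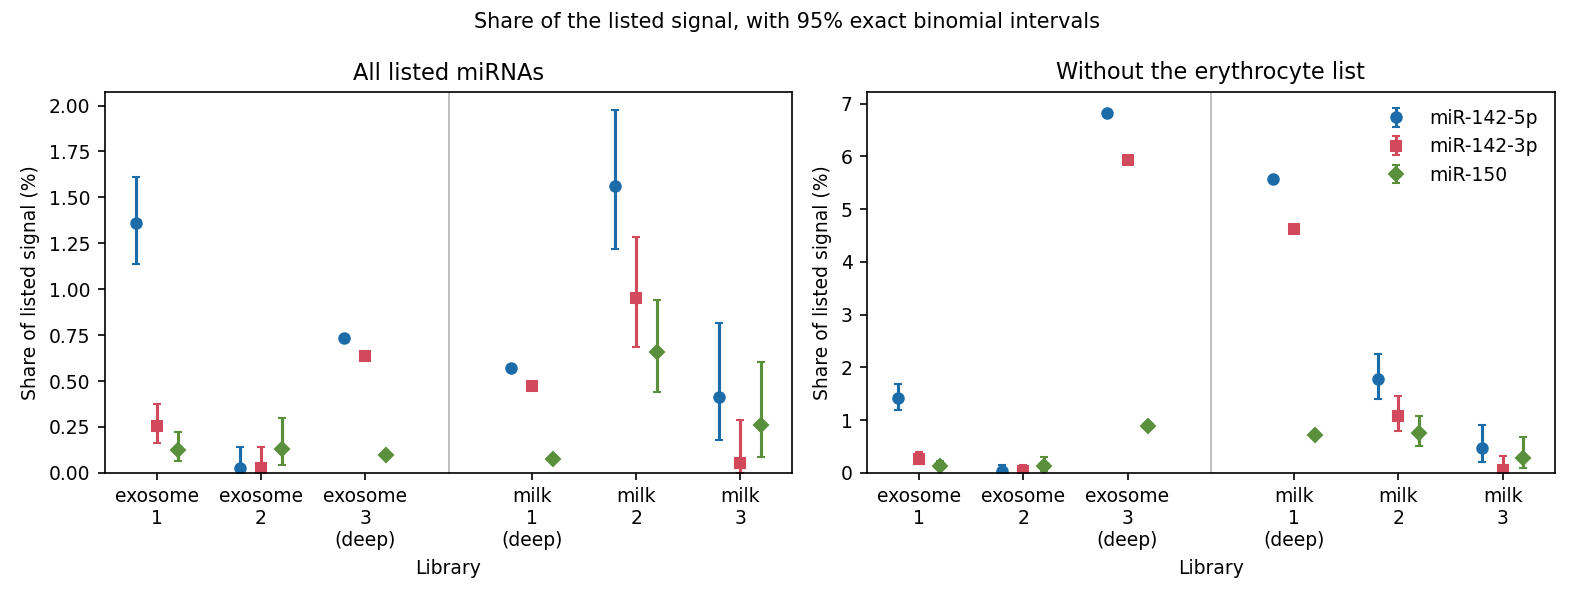
Share of the listed signal (%) held by each miRNA per library, of all listed miRNAs (left) and without the erythrocyte list (right), with exact 95% binomial intervals that cover counting error only. For miR-142-5p the highest shares on the left are those of milk exosome 1 and milk 2, at 1.36% and 1.56%, and on the right those of milk exosome 3 and milk 1, at 6.82% and 5.57%.

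miRNAs of other cell types also differed widely between the libraries. The muscle list held 55.0% of milk exosome 2, the library with 1 read of each miR-142 arm, and 7.56%, 0.000779%, 6.52e-05%, 10.3% and 0.286% of milk exosome 1, milk exosome 3, milk 1, milk 2 and milk 3. The stromal and endothelial list held 1.48%, 9.31% and 0.0143% of milk exosomes 1, 2 and 3, and 0.00970%, 6.19% and 12.3% of milk 1, 2 and 3. The epithelial and mammary list had 10 names but only 5 entries, so its share leaves out names without an entry. It held 0.00273% to 0.400% of the exosome libraries and 0.00109% to 1.25% of the milk libraries. Of its 5 listed members miR-182, miR-183, miR-429 and miR-96-5p were at 0 in milk exosome 2, and miR-429 also in milk exosome 3 and milk 2. Of the muscle list, miR-133a-5p, miR-133b and miR-206 were at 0 in milk 1 and milk 3, and miR-133a-5p also in milk exosome 3. The stromal miR-145-3p was at 0 in milk exosomes 1 and 2, milk 1 and milk 3. A 0 in a shallow library does not show absence, since 3 reads would be worth 59.0 in milk exosome 2 and 27.0 in milk exosome 1. Of the 5 erythrocyte miRNAs, miR-144 was at 0 in milk exosome 1, and miR-144 and miR-363 were at 0 in milk exosome 2. The part of these miRNAs in the values of miR-142 and miR-150 was not tested.

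The balance between the miR-142 arms differed between libraries by more than counting error. miR-142-3p made up 15.7% (10.3% to 22.4%) of the reads of both arms in milk exosome 1, whereas it reached 46.5% (46.2% to 46.8%) in milk exosome 3. It made up 45.3% (45.0% to 45.7%) in milk 1 and 37.8% (28.8% to 47.5%) in milk 2. Milk exosome 1, with 24 reads of 3p and 129 of 5p, lay below the other 3 of these libraries, and its interval did not meet theirs. Milk exosome 2, with 1 read of each arm, had an interval of 1.26% to 98.7%, and milk 3, with 1 read of 3p and 8 of 5p, one of 0.281% to 48.2%, so both are undetermined at this depth. These intervals compare libraries and not the groups.

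The ratio of miR-150 to miR-142-5p separated the libraries in another way. Milk exosome 3 had a ratio of 0.130 (0.127 to 0.133), and milk 1 had one of 0.128 (0.125 to 0.131), equal within counting error. In milk exosome 1 the ratio was 0.0930 (0.0468 to 0.168). Milk exosome 2 had 5 reads of miR-150 and 1 of miR-142-5p, a ratio with an interval of 0.559 to 236. Milk 2 had 0.420 (0.263 to 0.657) and milk 3 had 0.625 (0.161 to 2.17). Relative to miR-142-5p, miR-150 was thus higher in milk 2 and in milk exosome 2 than in the deep libraries beyond counting error, and so in milk 3. The highest and the lowest ratio both came from exosome libraries, but the intervals of both met those of milk libraries.

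**Figure D3:**
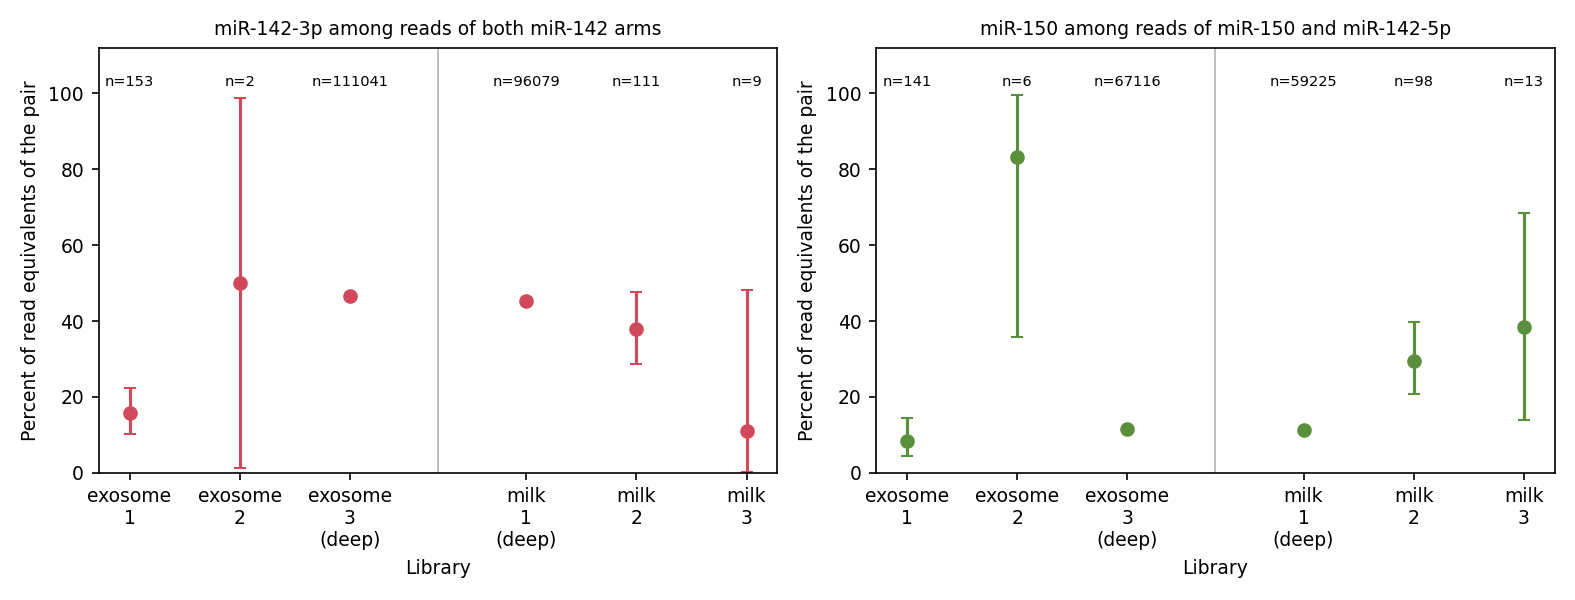
Percent of read equivalents taken by miR-142-3p among both miR-142 arms (left) and by miR-150 among miR-150 and miR-142-5p (right), per library, with exact 95% binomial intervals and the number of read equivalents (n). On the left, milk exosome 1 at 15.7% lies below milk exosome 3, milk 1 and milk 2 at 46.5%, 45.3% and 37.8%.

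The comparison named in the title of the series, milk exosome against milk, called none of the 3 miRNAs. The log2 fold change on log2(value + 1), exosome minus milk, was -0.57 (SE 2.26) for miR-142-5p, -0.15 (SE 2.54) for miR-142-3p and -0.31 (SE 1.39) for miR-150, each with an adjusted p of 0.997 in limma with Benjamini-Hochberg adjustment over 141 tested miRNAs (n = 3 per group). Of these 141, 0% passed at an adjusted p of 0.05, and 0 had an unadjusted p under 0.05. The deposited values of the groups did not overlap for 1.42% of the 141 miRNAs and for 0 of the 3. All 3 had a negative fold change, as did 40.4% of the tested miRNAs, and the median over all tested was 0.34. The 3 stayed negative after each library was rescaled to a common total, where 93 of the 141 were negative, and also when that total left out the erythrocyte list, where 99 were. Relative to that median they lay at -0.92, -0.49 and -0.65 for miR-142-5p, miR-142-3p and miR-150. The residual SD was 3.47 for miR-142-5p, 3.97 for miR-142-3p and 1.60 for miR-150 on the log2 scale, against a median of 2.50.

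Single libraries set the sign. Without milk exosome 2 the fold changes were 1.74, 1.73 and 0.19 for miR-142-5p, miR-142-3p and miR-150, and without milk 1 they were 0.62, 1.56 and 0.22. Without milk exosome 3 they were -2.30, -2.21 and -1.24, and without milk 3 they were -1.96, -2.34 and -1.22. Without milk exosome 1 they were -1.17, 0.03 and 0.12, and without milk 2 they were -0.38, 0.33 and 0.07. In these comparisons the smallest adjusted p of the 3 miRNAs was 0.912 in limma.

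Within the depth classes the direction differed, and the difference between classes was not tested. In the deep pair, 1 library of each group and so without a replicate, milk exosome 3 exceeded milk 1 by 0.48, 0.55 and 0.50 on the log2 scale for miR-142-5p, miR-142-3p and miR-150, or 1.40-fold, 1.46-fold and 1.42-fold. The median of all tested miRNAs differed by 0.16 there. In the shallow libraries, 2 per group, the fold changes were -1.10 (SE 2.50), -0.50 (SE 2.47) and -0.72 (SE 1.33), with an adjusted p of 0.974 in limma, beside a median of 0.39 over all tested.

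The other miRNAs linked to leukocytes did not pass either. The leukocyte list of 12 names had 11 entries, all but miR-223, of which 10 passed the filter on low values. Their median log2 fold change was 0.28, against 0.34 over all tested, with 6 positive and 4 negative, and 0 called. After rescaling to a common total 4 of the 10 were positive, beside 48 of all 141, and the list median was -0.08 against -0.29 over all tested. With the erythrocyte list left out of that total 2 of the 10 were positive, beside 42 of all 141, and the medians were -0.16 and -0.39. The list median thus lay below that of all tested on the deposited values and above it after these scalings. With values of 100 or more required, 5 of the list were tested, 1 of them positive, and the list median was -0.26 against 0.09 over all tested. The median ran from -0.91 without milk 3 to 1.42 without milk exosome 2. The negative ones were the miR-142 arms, miR-150 and miR-146a-5p, a brake on NF-kB signalling that targets TRAF6 and IRAK1. miR-146a-5p stood at 108, 19.7 and 199 in milk exosomes 1, 2 and 3, and at 188, 71.7 and 55.3 in milk 1, 2 and 3 (log2 fold change -0.26, SE 1.44). Its value in milk exosome 2 was 1 read.

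miR-155-5p, which is induced when lymphocytes and macrophages are activated, was scarcer. Its values were 27.0, 19.7 and 73.0 in milk exosomes 1, 2 and 3, and 40.9, 14.3 and 13.8 in milk 1, 2 and 3 (log2 fold change 0.72, SE 1.53). In the shallow libraries that is at most 3 reads. miR-342, whose gene lies in an intron of EVL, was at 27.0, 59.0 and 507 in exosomes 1, 2 and 3, and at 442, 0 and 69.2 in milk 1, 2 and 3 (log2 fold change 1.59, SE 2.46). The value of 0 in milk 2, where 3 reads would be worth 43.0, weighs on that fold change. miR-181a, known for its part in lymphocyte development in the mouse, was the most even of the list. It stood at 293, 275 and 291 in exosomes 1, 2 and 3, and at 271, 194 and 89.9 in milk 1, 2 and 3 (log2 fold change 0.77, SE 1.08).

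For miR-181b, processed from the same transcript as miR-181a, the log2 fold change was 0.57 (SE 1.42). miR-181c and miR-181d-5p, from another cluster of the family, had 0.43 (SE 2.42) and 0.13 (SE 2.30), and both were at 0 in milk exosome 2 and milk 3. miR-146b was at most 13.8 in any library and was left out by the filter. The whole leukocyte list held 2.49%, 0.702% and 1.64% of milk exosomes 1, 2 and 3, and 1.28%, 3.77% and 1.71% of milk 1, 2 and 3. In milk exosome 2 the miR-142 arms were thus a small part of the list, and miR-181a and miR-150 led it.

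**Figure D4:**
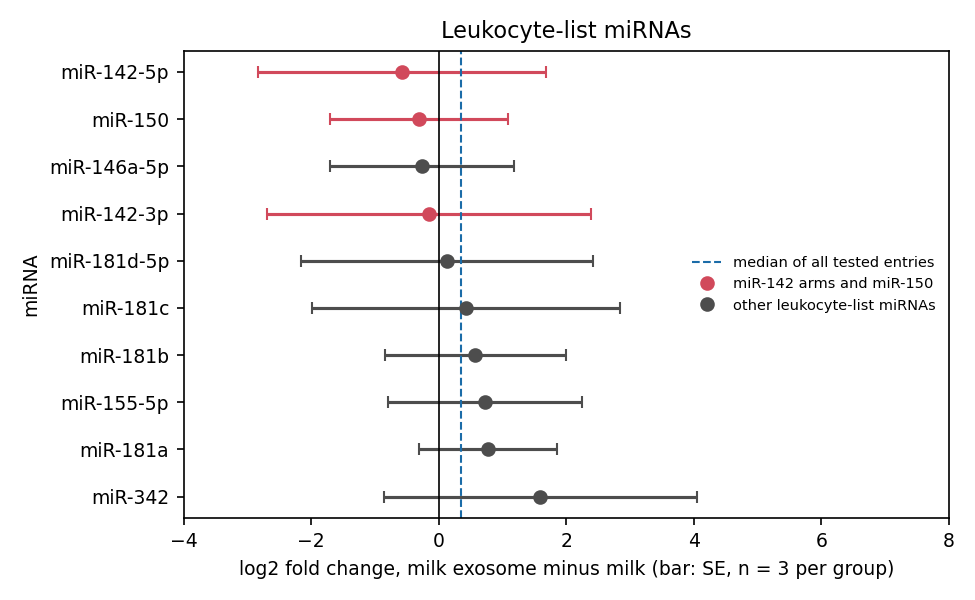
log2 fold change, milk exosome minus milk, of the 10 tested leukocyte-list miRNAs, with the SE from limma (n = 3 per group). The miR-142 arms, miR-150 and miR-146a-5p lie below 0, and all 10 bars cross 0.

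miR-142-5p was most alike, over the 6 libraries, to miRNAs that are not of the leukocyte list. Among the other 140 tested entries the highest Pearson correlations of log2(value + 1) were 0.993 with miR-17-5p and with miR-106a, which are listed with 1 shared sequence and are not separate measurements, 0.989 with miR-29c, 0.984 with miR-16 and 0.976 with miR-92a. miR-17-5p and miR-92a are made from a shared cluster that is active in dividing blood cells and many others, and miR-16 is on the erythrocyte list. The correlation was above 0.9 for 36 of the 140, so many entries share this pattern, and the libraries share their depth with it. Among the 4 shallow libraries alone these values were 0.996, 0.988, 0.992 and 0.968 for miR-17-5p, miR-29c, miR-16 and miR-92a. miR-142-3p ranked 27 among the 140 at 0.937 (0.870 in the shallow libraries), and miR-150 ranked 50 at 0.807 (0.557). With 6 libraries of such unequal depth these are descriptions and cannot be tested.

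miR-17-5p, the closest, stood at 702, 19.7 and 2794 in milk exosomes 1, 2 and 3, and at 3270, 437 and 83.0 in milk 1, 2 and 3. Like miR-142-5p it had 1 read in milk exosome 2 and its highest values in the deep libraries. It differed in being lower in milk exosome 3 than in milk 1, where miR-142-5p had the opposite order.

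**Figure D5:**
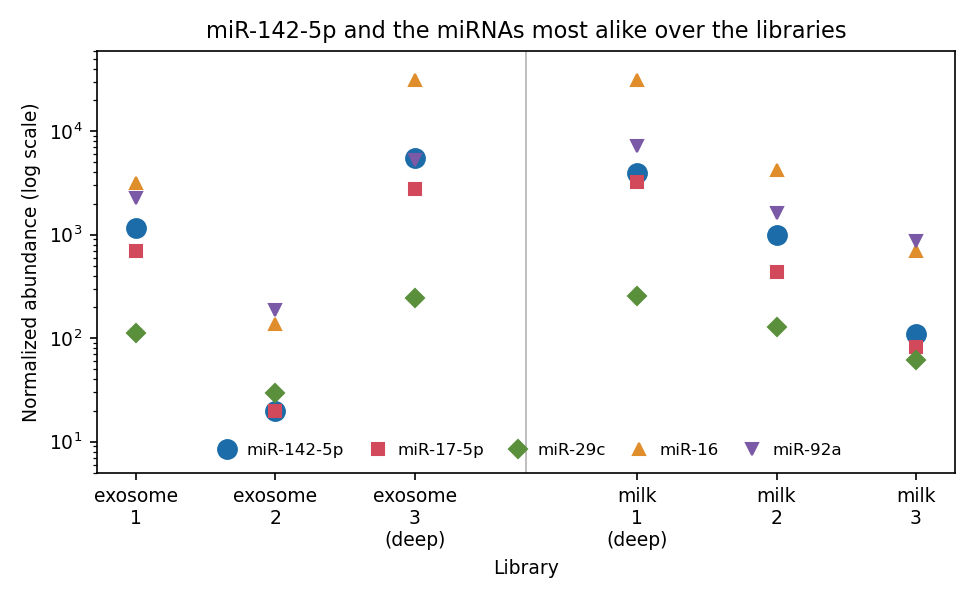
Normalized abundance (log scale) of miR-142-5p and of the miRNAs with the highest correlation to it, 1 point per library, exosomes left and milk right; miR-106a has the values of miR-17-5p and is not drawn. All 5 miRNAs are lowest in milk exosome 2, where miR-142-5p and miR-17-5p are at 19.7.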

How the data were processed

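Small RNA from 6 samples was read as single-end reads of 36 bp with the TruSeq Small RNA kit, per the labels' protocols. The authors deposited a normalized signal per miRNA, 1 column per sample. No aligner or annotation is named for it, and the normalization method is not given in the sources used here. Because it is no count, no count model was fitted. Of 279 lines, 34 exact repeats were dropped, and 7 of 238 sequences had more than 1 name. Another 6 value columns, in a second sheet, have headers that fit no sample, and they were not used.

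In each library 1 read was set to the commonest nonzero value. Of the values above 0, 70.9% to 88.0% per library were whole multiples of it within 0.01 reads, so read equivalents are estimates, and they cover listed miRNAs only. Libraries were called deep above 133097 read equivalents, the geometric mean of the lowest and the highest library. Shares use all 245 entries as denominator and exact Clopper-Pearson 95% intervals. Without molecular identifiers reads may be copies of 1 molecule, and the intervals cover counting error only.

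Entries with a value of 10 or higher in 3 or more libraries were fitted as log2(value + 1), milk exosome minus milk, by limma 3.58.1 (R 4.3.3) with its trend option. P-values were adjusted over all 141 by the Benjamini-Hochberg method. A fold change on this scale understates changes of low values. All 3 miRNAs passed the filter. The fit was also run on simulated data, and no result here rests on that run. Shares were compared by exact permutation tests in Python 3.11.15 with numpy 2.4.6, pandas 2.3.3 and scipy 1.17.1, and figures drawn with matplotlib 3.10.9. The miRNAs, lists and settings were chosen with earlier results of these data known. Every entry found by name is described, with the other entries of the leukocyte list and the 5 entries most alike to miR-142-5p by Pearson correlation.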

Additional observations from a re-analysis of the deposited data

How the results depend on the processing

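No miRNA passed limma's threshold in the 18 other settings (smallest adjusted p 0.327, without milk exosome 3, where 5 had an unadjusted p under 0.05). The 3 scalings kept all 3 signs negative. They moved the median of all tested miRNAs to -0.29 (common total), 0.23 (recentred on the median) and -0.39 (common total without the erythrocyte list), and relative to it miR-142-5p lay at -0.99, -0.92 and -0.98. With 1 library left out in turn, log2 fold changes ran from -2.30 to 1.74 for miR-142-5p, from -2.34 to 1.73 for miR-142-3p and from -1.24 to 0.22 for miR-150, and the leukocyte median from -0.91 to 1.42. The leukocyte-list median was -0.08, 0.17 and -0.16 under these scalings, with 4, 6 and 2 of 10 positive beside 48, 77 and 42 of all 141. It turned to -0.26 with values of 100 or more required, where 1 of 5 tested was positive and the median of all tested was 0.09. Without the erythrocyte list in the total, the difference in summed share turned to 0.10 percentage points. With 1 library left out it ran from -1.02 to 0.21. The cause of these changes was not tested.

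With the replicate number as a block, 0 miRNAs were called. Both groups hold the same numbers, so this block cannot change a fold change. Those of miR-142-5p, miR-142-3p and miR-150 stayed at -0.57, -0.15 and -0.31. Their SEs were 2.17, 2.30 and 1.98 with the block, against 2.26, 2.54 and 1.39 without it. The deviations of same-numbered samples correlated at -0.25, 0.39 and -0.48, and 1 of 6 samples correlated best with its own number, so the numbers were not taken as pairs. Depth class as a term, added after the data were seen, called 0 miRNAs. Both groups have the same make-up of deep and shallow libraries, so this term cannot change a fold change either. It thus does not test the part of depth in the fold changes. With it the SEs were 1.78, 1.72 and 1.04 for miR-142-5p, miR-142-3p and miR-150. The other pseudocounts (0.1 and 10) kept the signs of the 3 miRNAs. The filters (none and 100) and the fit without a trend cannot change the fold change of a miRNA. They bear only on its SE and p-value. The ratios between the miRNAs stayed within their counting intervals with a pseudocount of 1. miR-223 gave no ratio. Depth limits the miR-142 arms in milk exosome 2 and miR-142-3p in milk 3, with 1 read each.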
